A study of Mus musculus with 5 samples.

Results

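RIKEN clone-named genes are mouse genes that still carry the name of the cDNA clone in which they were first found, an alphanumeric code that ends in Rik. A row of the deposited gene table was taken as a member if its symbol ended in Rik, if its mean normalized count over the 5 samples was at least 10 and if it lay on chromosomes 1 to 19; rows with several symbols and 1 named row were left out. Of 56324 rows in the table, 1973 met the rule, and these carried 1963 distinct symbols. Members were thus selected on their mean normalized count, which is not a result. The table held 2565 such rows at any level, of which 592 had a mean under 10 and 134 of these had no value in any sample. The samples were 2 of spermatocytes and 3 of spermatids from male C57Bl/6 mice of 12 weeks, both isolated by Sta-put sedimentation under gravity, with no treatment and no altered allele named. Libraries were made with a stranded mRNA kit from total RNA. The labels do not say whether replicates came from separate animals, so each p-value reflects no more than the spread among the 5 samples, and that spread may be technical. Sedimentation gives enriched fractions, and in such bulk samples fewer cells of a type and less RNA per cell cannot be told apart.

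Spermatocytes are the germ cells that pair and recombine their chromosomes in meiosis, and spermatids are the haploid cells that follow. Round spermatids transcribe a large set of genes for the acrosome, the flagellum and the compaction of chromatin before transcription stops and the nucleus condenses. The testis expresses more of the genome than most tissues, including many long noncoding RNAs, and RIKEN sequenced full-length cDNA from many mouse organs, the adult testis among them. Clone codes that begin with 17 or 49 come from libraries of adult testis, so a code can be split by the tissue of the clone without any value of these samples. A clone name marks a gene that had no name when it was found. Some members have since been renamed for a product, and many are annotated as noncoding.

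Promoters bear on these genes because spermatid transcription is known for the factor CREM, which binds the cyclic AMP response element TGACGTCA, a palindrome that reads the same on both strands. The windows below are the stretch around that element, in capitals, upstream of the annotated start of 6 members that overlap no other row. They are the 4 members with the highest and the 2 with the lowest log2 fold change among called members with the element in that place, chosen after the values were known. They show that the same letters lie before members with opposite calls. Each is written 5′ to 3′ on the strand of the gene, from RefSeq on GRCm38.p6.
4930515B02Rik, chr4:140872651-140872692, plus strand: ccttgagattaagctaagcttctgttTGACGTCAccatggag
1700041M19Rik, chr16:77010882-77010938, minus strand: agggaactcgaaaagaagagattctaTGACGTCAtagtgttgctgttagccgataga
4933425H06Rik, chr6:144672792-144672851, plus strand: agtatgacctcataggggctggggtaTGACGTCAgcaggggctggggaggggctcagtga
F630042J09Rik, chr13:67278517-67278576, plus strand: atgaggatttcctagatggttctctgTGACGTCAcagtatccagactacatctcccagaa
4930558J18Rik, chr1:57377564-57377623, minus strand: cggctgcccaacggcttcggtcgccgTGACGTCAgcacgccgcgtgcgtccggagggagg
1300002E11Rik, chr16:21794272-21794331, plus strand: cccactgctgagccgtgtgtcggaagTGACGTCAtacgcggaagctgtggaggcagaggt

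4930515B02Rik, a long noncoding gene, had normalized counts of 4.31 and 6.71 in spermatocytes and 947, 389 and 646 in spermatids. 1700041M19Rik, also long noncoding, had 43.1 and 36.9 in spermatocytes and 3636, 3511 and 2997 in spermatids. 4933425H06Rik, listed today as Sox5os3 for its place opposite Sox5, had 54.9 and 18.1 in spermatocytes and 2321, 2666 and 2158 in spermatids. All 3 were above their spermatocyte values in every spermatid sample. F630042J09Rik had 6.46 and 6.03 in spermatocytes and 222, 466 and 512 in spermatids, again without overlap. The log2 fold changes of these 4, spermatids against spermatocytes, ran from 5.70 to 6.60. 4930515B02Rik and F630042J09Rik averaged under 10 in spermatocytes and passed the limit only through spermatids, so the filter fixed their direction. The remaining pair pointed the other way. 4930558J18Rik had 3043 and 2767 in spermatocytes and 1434, 1241 and 1247 in spermatids and a log2 fold change of -1.15. 1300002E11Rik had 445 and 372 in spermatocytes and 105, 112 and 94.3 in spermatids, a log2 fold change of -1.96.

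Promoter windows of 250 bases before to 50 after a start were found for 1358 distinct genes among the members, 1539 windows in all. The full element was in 2.27% of these and in 1.79% of the 32851 promoters of the same length in the RefSeq table. Its core TGACG, which is also part of the full element, was in 22.5% of member promoters and 20.8% of all promoters. The MYB site, searched on both strands as TAACTG and as TAACGG, and as each of these with C for its first letter, was in 35.0% of member promoters and 28.3% of all. Testis-library members had it in 40.4% and the others in 28.7%. It did not follow the direction of the calls. Members called lower in spermatids had it in 37.2%, those called higher in 35.4% and those at least 32-fold higher in 33.1%. The letters GTTGCC of an X-box site were in 16.5% of member promoters and 12.5% of all. Testis-library members had them in 19.6% and the others in 12.9%. Members called higher in spermatids had them in 18.5% and those called lower in 14.0%. They were in 21.7% of the 414 promoters of members at least 32-fold higher in spermatids. Shares over all rows with these calls were not computed, so whether the members differ from such rows cannot be told. In those same 414 promoters the full response element was in 2.42% and its core in 15.5%. A match is a description of the letters in the window and says nothing of whether a factor is bound there.

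Of the 1973 members, 1715 matched a gene in the RefSeq table, and 399 of these carry another symbol today. By RefSeq class 1062 members were long noncoding, 598 protein-coding and 55 of another class such as pseudogenes, and 258 had no match. GENCODE gave exons for 1833 members. Noncoding members had a median of 1549 exonic bases and 4 exon blocks, against 2471 bases and 6 blocks for coding ones. The median level per kilobase of exon was 220 normalized counts in noncoding and 571 in coding members. The median mean level of the members was 408 normalized counts, against 198 over all 28370 rows with a mean of at least 10. The range was wide: 508 members had a mean under 100, 682 a mean of at least 1000 and 134 a mean of at least 10000. The coordinates of 1015 members overlapped another row, in 777 cases a row with a gene name. Since the strand setting of the counting is not given, such rows may share reads, and their genes cannot be told apart. Of the members described below, 4931408D14Rik, Minar2, Bmt2, Borcs7, C9orf72, Relch, Crocc2, Snhg14, Cfap97d2, Meikin, Cracd, 1700003E16Rik, Trmt9b, Hmces, Tex47, 1700027A15Rik, Tmem131l and 1 row each of Cfap46 and Cfap61 overlap only rows without a gene name; other overlaps stand beside the gene.

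In 4 of the 5 libraries the totals were 52784231 to 80384019 reads, recovered as multiples of the smallest value in each column; for spermatid replicate 2 that value was too close to 1 to give a total in reads. The cell labels were checked against marker genes. All 19 tested spermatid markers were higher in spermatids, and Acrv1, an acrosome gene, had 475 and 304 in spermatocytes and 27002, 30144 and 26452 in spermatids. Of 13 tested spermatocyte markers 7 were lower and 2 higher in spermatids, and Sycp3, a protein of the synaptonemal complex, had 10739 and 9724 in spermatocytes and 3949, 3377 and 2355 in spermatids. The sum of the 20 Sertoli cell markers ranged from 83514 to 109627 in spermatocytes and from 8222 to 9931 in spermatids, and 19 of 20 were lower in spermatids. That of the 9 tested Leydig cell markers ranged from 6227 to 6806 in spermatocytes and from 1955 to 2600 in spermatids, all 9 lower there. Of 15 tested markers of peritubular myoid, endothelial, macrophage and blood cells 8 were higher in spermatids and 2 lower, and their sum ranged from 2133 to 2634 in spermatocytes and from 3214 to 4689 in spermatids. Of 14 tested spermatogonia markers 7 were higher and 3 lower, with a median log2 fold change of 1.17, although their sum was lower in spermatids, at 3323 to 4202 against 5761 to 6105. No tested marker in any of these lists was at 0 in every sample. Sertoli and Leydig cell markers thus moved with the members that were lower in spermatids, and 8 and 7 markers of the last 2 lists with those that were higher; their part in either result was not tested.

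More members were higher in spermatids than lower. With limma on log2(value + 1) and Benjamini-Hochberg adjustment over all 28370 rows, 1108 members (56.2%) were higher in spermatids, where 40.6% of all rows were. Another 480 members (24.3%) were lower, where 36.5% of all rows were, and 385 did not pass the threshold of 0.05. The calls in either direction covered 77.1% of all rows. The median log2 fold change was 0.87 over the members and 0.07 over all rows tested. Differences of at least 32-fold toward spermatids were found for 521 members (26.4%), against 9.58% of all rows, and the opposite difference for 5 members, against 1.52% of all rows. Spermatocyte and spermatid values were fully separate for 1750 members (88.7%), against 85.8% of all rows. Of the members 36 had no read in spermatocytes and 1 had none in spermatids; with these set to the bound that 3 reads per library allow, the median stayed at 0.87 and 508 members were at least 32-fold higher.

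These counts depended on the filter and the scaling. A member whose mean passed 10 only through its higher group had to differ: 336 members were under 10 in spermatocytes and 54 under 10 in spermatids. Among the 1583 members with a mean of at least 10 in both groups, 786 were higher and 439 lower with a median of 0.43, beside 8149 and 7692 of 21828 rows and a median of 0.00 for the whole table. In the same restriction 325 members (20.5%) and 1444 rows (6.62%) were at least 32-fold higher in spermatids. The deposited scaling placed 69.8% of member calls on the higher side, against 56.3% when every library was rescaled to 1 total and 58.6% after quantile normalization; over all rows these shares were 52.6%, 38.1% and 41.3%. These are the 2 rescalings referred to below as equal totals and quantiles. They moved the median of all rows by -0.64 and -0.48, so directions of changes smaller than that are relative to the deposited scaling. Among the 958 members that overlap no other row, 575 were higher and 204 lower.

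**Figure D1:**
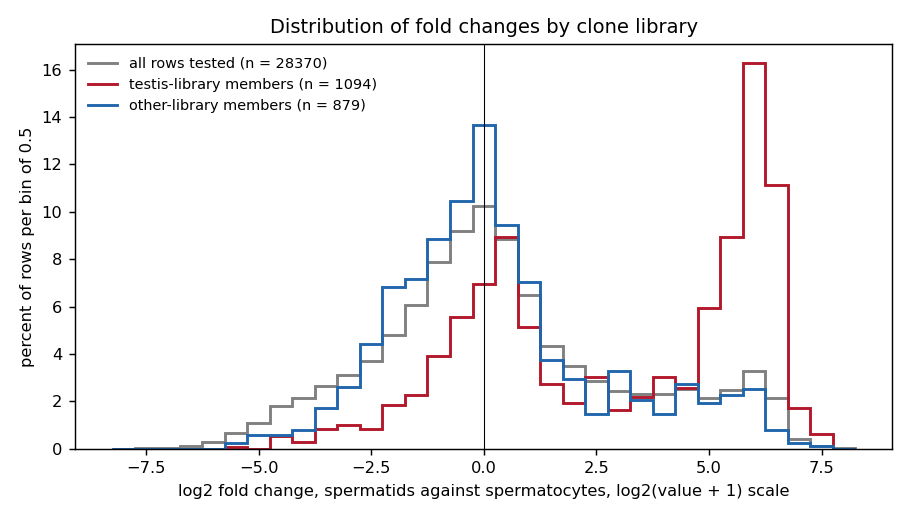
Distribution of log2 fold changes, spermatids against spermatocytes, in bins of 0.5, as a percentage of the rows in each set: all 28370 rows tested, 1094 testis-library members and 879 other members. The testis-library line has a second peak near 6, and the line of the other members lies close to that of all rows, with its highest bin at 0.

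Most of the higher calls came from clones of testis libraries. Of 1094 members with such a code, 803 (73.4%) were higher in spermatids and 164 (15.0%) lower, with a median log2 fold change of 3.81, or 3.63 with members that had no read in a group at their bound. Of the 879 other members 305 (34.7%) were higher and 316 (35.9%) lower, with a median of -0.03. A difference of at least 32-fold toward spermatids was found for 463 testis-library members (42.3%) and 58 others (6.60%), or 455 and 53 with those members at their bound. The lower calls of testis-library members went to 250 for equal totals and 247 for quantiles. The higher calls of the other members were 197 of 712 when both groups had a mean of at least 10, with 281 lower. In that same restriction testis-library members gave 589 higher and 158 lower of 871, with a median of 1.70, and the 32-fold difference toward spermatids was left in 304 of them (34.9%) and in 21 of the 712 others (2.95%).

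The split by library was seen in both RNA classes. Among long noncoding members, 461 of 656 testis-library members were higher and 111 lower, with a median of 3.85, whereas 137 of 406 others were higher and 151 lower, with a median of -0.13. Among protein-coding members, 214 of 268 testis-library members were higher and 33 lower, with a median of 3.26, and 126 of 330 others were higher and 115 lower, with a median of 0.07. Noncoding and coding members as a whole were close: 598 of 1062 and 340 of 598 were higher, which is 56.3% and 56.9%. By chromosome the share of members higher in spermatids ran from 45.8% on chromosome 9, 54 of 118, to 65.6% on chromosome 14, 61 of 93. Chromosome 14 also had the highest median log2 fold change, 5.02, and 48 of its members were at least 32-fold higher in spermatids. Shares over all rows of each chromosome were not computed, so whether chromosome 14 stands apart for the members cannot be told. Some of its members lie among multicopy gene families, where counts are uncertain.

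**Figure D2:**
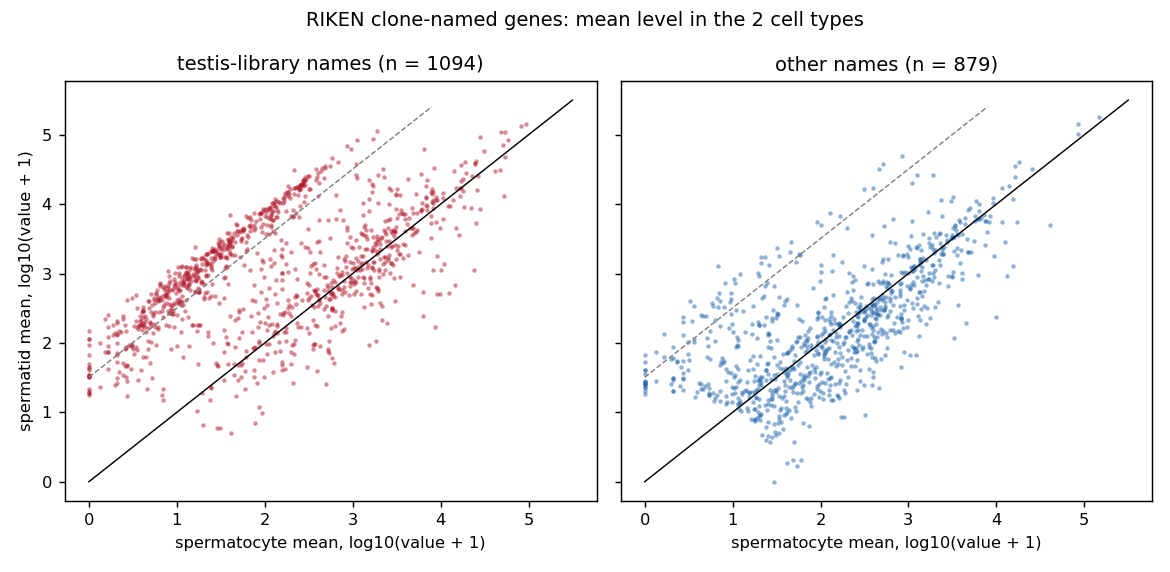
Mean normalized count of each member in spermatids (vertical) against spermatocytes (horizontal), both as log10(value + 1), with 1094 testis-library members on the left and 879 others on the right. The solid line marks equal levels and the dashed line a 32-fold difference; 463 testis-library members and 58 others were at least 32-fold higher in spermatids by the fitted fold change.

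The 8 members with the largest differences in each direction were chosen among called members whose groups did not overlap. Their higher group also had to average at least 100. Their separation is thus a condition and not a result. Of the 8 members with the largest differences toward spermatids, 4 were long noncoding, 2 protein-coding and 2 without a RefSeq match. E330034G19Rik, 4930556G01Rik, 4930421P07Rik, 1700080N15Rik and 1700042O10Rik averaged under 10 in spermatocytes. They passed the limit on the mean only through spermatids, so the filter fixed their direction and their p-values are no support for it. E330034G19Rik (chr14:24293272-24309959, plus strand), listed as protein-coding, had normalized counts of 7.54 and 4.02 in spermatocytes and 1543, 1183 and 1191 in spermatids (log2 fold change 7.63 ± 0.28 (SE), limma adjusted p = 1.3e-06). 1700091H14Rik (chr14:42089750-42095278, minus strand), long noncoding, had 59.2 and 20.1 in spermatocytes and 9654, 5745 and 5851 in spermatids (log2 fold change 7.59 ± 0.45 (SE), limma adjusted p = 9.4e-06). Its spermatid replicate 1 was the highest sample. E330034G19Rik and 1700091H14Rik both lie on chromosome 14. 4930556G01Rik (chr4:30664595-30855744, plus strand), a noncoding gene, had 0 and 1.34 in spermatocytes and 287, 247 and 218 in spermatids. With 2 reads in spermatocytes its ratio was 374 with an exact 95% counting interval of 103 to 3085, which covers counting error only. 1700001F09Rik (chr14:43342384-43347813, minus strand), protein-coding, was by far the most abundant of these, with 316 and 116 in spermatocytes and 35853, 31709 and 25840.0 in spermatids (log2 fold change 7.32 ± 0.39 (SE), limma adjusted p = 5.8e-06). Spermatocyte replicate 1 stood above replicate 2, and both were far below every spermatid sample. 1700091H14Rik and 1700001F09Rik lie in a stretch of chromosome 14 known for multicopy gene families, so their counts are uncertain if reads were split among similar copies.

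Another 4 members completed this set. 4930421P07Rik (chr5:38574849-38575770, plus strand), without a RefSeq match and a processed pseudogene in GENCODE, had 9.69 and 0 in spermatocytes and 502, 594 and 479 in spermatids (log2 fold change 7.32 ± 0.89 (SE), limma adjusted p = 0.00028). 1700029E06Rik (chr5:58453038-58455292, plus strand), also unmatched, had 18.3 and 2.68 in spermatocytes and 1347, 1362 and 1160.2 in spermatids (log2 fold change 7.25 ± 0.63 (SE), limma adjusted p = 5.4e-05). In both the spermatocyte samples differed several-fold while the spermatid samples lay close together. 1700080N15Rik (chr2:4132065-4141142, minus strand), noncoding, had 3.23 and 10.7 in spermatocytes and 1152, 1134 and 945 in spermatids (log2 fold change 7.25 ± 0.42 (SE), limma adjusted p = 8.6e-06) and overlapped 2 rows without a name. 1700042O10Rik (chr11:11868122-11885320, plus strand) is annotated antisense and overlaps Ddc, the gene of dopa decarboxylase, so its reads cannot be told apart from those of Ddc. It had 2.15 and 1.34 in spermatocytes and 527, 377 and 358 in spermatids (log2 fold change 7.26 ± 0.31 (SE), limma adjusted p = 2.3e-06).

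**Figure D3:**
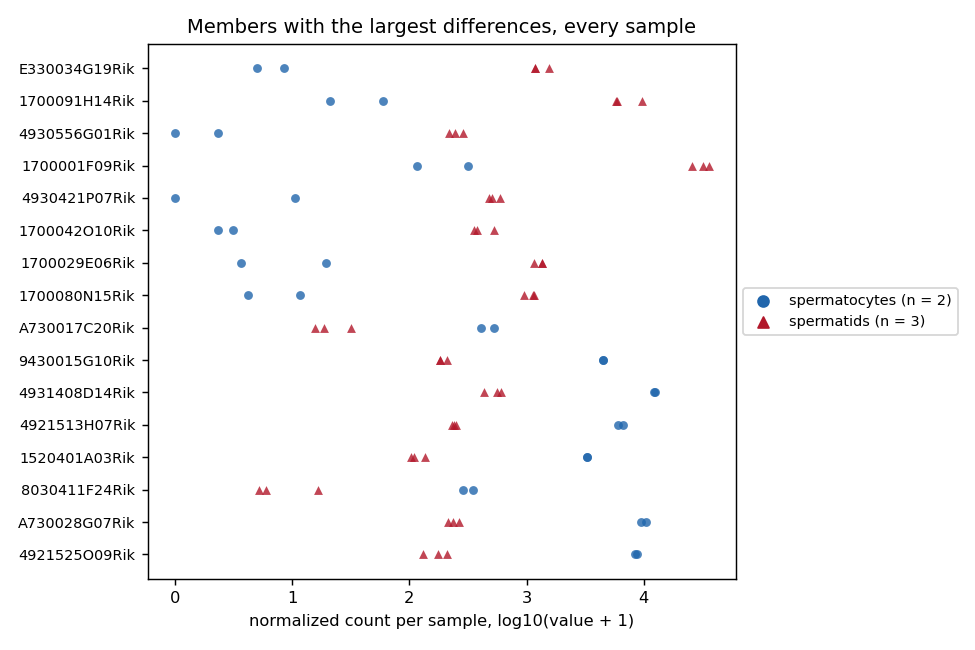
Normalized count in every sample, as log10(value + 1), of the 8 members that differed most in each direction. Circles are the 2 spermatocyte samples and triangles the 3 spermatid samples. The upper 8 members are higher in every spermatid sample and the lower 8 in every spermatocyte sample, a condition of their choice.

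The largest differences toward spermatocytes were smaller, and only 5 members passed 32-fold in this direction. 4921525O09Rik (chr13:52096739-52124160, plus strand), long noncoding, had 8708 and 8406 in spermatocytes and 174, 131 and 209.6 in spermatids (log2 fold change -5.66 ± 0.20 (SE), limma adjusted p = 1.1e-06). It is also the 1 testis-library member among those 5, and it overlaps 4 unnamed rows. A730028G07Rik (chr8:104258234-104261286) had 10345 and 9369.9 in spermatocytes and 262, 235 and 215 in spermatids (log2 fold change -5.37 ± 0.13 (SE), limma adjusted p = 4.5e-07), but it overlaps Cklf, a chemokine-like factor gene, and reads of both cannot be told apart. 8030411F24Rik (chr2:148782009-148785936, plus strand), listed today as Cstdc1 for its cystatin domain, had 287 and 348 in spermatocytes and 15.5, 4.96 and 4.19 in spermatids (log2 fold change -5.31 ± 0.54 (SE), limma adjusted p = 0.00012). It was low in both groups beside the first 2. Its spermatid mean was under 10, so it passed the limit only through spermatocytes and the filter fixed its direction.

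Protein-coding 1520401A03Rik (chr17:23704488-23722784, minus strand) had 3256 and 3268 in spermatocytes and 109, 103 and 134 in spermatids (log2 fold change -4.82 ± 0.16 (SE), limma adjusted p = 8.7e-07). 4921513H07Rik (chr6:127776084-127778322, minus strand), long noncoding, had 6591 and 6027 in spermatocytes and 242, 251 and 231 in spermatids (log2 fold change -4.70 ± 0.11 (SE), limma adjusted p = 4.5e-07). The replicates of both genes lay within narrow ranges in each group. 4931408D14Rik (chr19:37258423-37264095), noncoding, was the most abundant, with 12505 and 12201 in spermatocytes and 606, 434 and 556 in spermatids (log2 fold change -4.55 ± 0.16 (SE), limma adjusted p = 9.3e-07). 9430015G10Rik (chr4:156109982-156127263, plus strand), protein-coding, had 4498 and 4499 in spermatocytes and 183, 182 and 211 in spermatids (log2 fold change -4.55 ± 0.13 (SE), limma adjusted p = 5.3e-07). In both, no spermatid value came near the spermatocyte ones. A730017C20Rik, listed today as Minar2, a membrane protein gene on chromosome 18, had 406 and 528 in spermatocytes and 31.0, 14.9 and 17.8 in spermatids (log2 fold change -4.45 ± 0.36 (SE), limma adjusted p = 4.2e-05). For comparison, Clu, a Sertoli cell marker, had 41477 and 53747 in spermatocytes and 1130.2, 1139.8 and 707 in spermatids, a difference of the same order.

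The 8 most abundant members had log2 fold changes from 0.29 to 1.19. A730098P11Rik had the highest mean of all members, with 154107 and 139222 in spermatocytes and 201197, 174593 and 164402 in spermatids and 172037 per kilobase of exon as its mean. It is listed as Morf4l1-ps1, a pseudogene, lies within the coordinates of Lpp, and its reads may be shared with its parent gene, so its level is uncertain. Its log2 fold change of 0.29 missed the threshold (limma adjusted p = 0.054), which it passed without spermatid replicate 1 or 3 (limma adjusted p = 0.043 and 0.0496). 2210404O07Rik, now Smim24, a small membrane protein gene, had 89970.1 and 77579.6 in spermatocytes and 119102, 101509.7 and 89059 in spermatids, with overlapping groups and a limma adjusted p = 0.097, or 0.045 without spermatid replicate 3. The estimates of both turned negative under the 2 rescalings, where Smim24 was called lower in spermatids (limma adjusted p = 0.0073 for equal totals and 0.015 for quantiles) and A730098P11Rik was called lower for equal totals (limma adjusted p = 0.0023) but not for quantiles (0.23).

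4922502D21Rik, a C-type lectin gene now called Clec2m, had 98229 and 86844 in spermatocytes and 174840.0, 129242 and 123465 in spermatids (log2 fold change 0.61 ± 0.16 (SE), limma adjusted p = 0.012). 1700123L14Rik had 88981 and 76938 in spermatocytes and 153063, 127508 and 121303 in spermatids (log2 fold change 0.69 ± 0.13 (SE), limma adjusted p = 0.0024) and overlaps Fam19a1. 1700029F12Rik, protein-coding, had 62164 and 53529.9 in spermatocytes and 99765, 78960.1 and 73700.0 in spermatids (log2 fold change 0.53 ± 0.15 (SE), limma adjusted p = 0.014). The direction of Clec2m and 1700029F12Rik turned under both rescalings, and 1700123L14Rik no longer passed under either. Without spermatocyte replicate 2 none of these 3 was called (limma adjusted p = 0.13 for Clec2m, 0.15 for 1700029F12Rik and 0.051 for 1700123L14Rik), and without replicate 1 Clec2m and 1700029F12Rik were not (0.066 and 0.056). C530008M17Rik, now Cracd, an actin regulator gene, had 86152 and 81294 in spermatocytes and 142102, 151009 and 141289 in spermatids (log2 fold change 0.79 ± 0.09 (SE), limma adjusted p = 0.00017), also not past the threshold under those scalings. 1700001J11Rik had 57411 and 51219 in spermatocytes and 114388, 109152 and 106527 in spermatids (log2 fold change 1.02 ± 0.09 (SE), limma adjusted p = 6.8e-05) and kept its call. GENCODE lists it as a transcribed processed pseudogene, so its reads too may be shared with a parent gene. 1700003M02Rik, now Cfap206, a radial spoke gene of the axoneme, had 50356 and 46280.2 in spermatocytes and 116122, 110229 and 105255 in spermatids (log2 fold change 1.19 ± 0.09 (SE), limma adjusted p = 3.1e-05).

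Below these in abundance, 1700028J19Rik, a long noncoding gene, had 55477 and 52193 in spermatocytes and 48163, 49034 and 48668 in spermatids. Its groups did not overlap, but the log2 fold change of -0.15 had a limma adjusted p = 0.14. It was called lower under both rescalings, as was the next gene. 4933416C03Rik, now Taf7l2, a relative of a subunit of the transcription factor TFIID that overlaps Ptprr, had 27014 and 25959 in spermatocytes and 27116, 24789 and 24712 in spermatids. Its groups overlapped (log2 fold change -0.05 ± 0.09 (SE), limma adjusted p = 0.59). Per kilobase of exon, the mean level was 11499 for Taf7l2, 20521 for 1700028J19Rik and 90212 for Smim24, so the order of the 3 by level per length is the same as by count. This did not hold for all members. Cracd, with 12305 exonic bases, had 9782 per kilobase, below Taf7l2, although its count was higher.

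The present names of renamed members show which processes they are known for. Groups were put together from those names after the values were known, so their counts are descriptions without a test of the group. Over all rows 40.6% were higher in spermatids and 36.5% lower, and a group with shares near these does not stand apart from the table. Members named singly in the paragraphs on these groups were those called and changed at least 2-fold, with Meikin added, again chosen after their values were seen.

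Genes of the sperm head, chromatin and fertilization were nearly all higher in spermatids. Of 14 listed 13 were members, 12 were higher, none was lower, and the median log2 fold change was 6.00. Spata46, known for shaping the sperm head (1700015E13Rik), had 358 and 272 in spermatocytes and 22926, 29157 and 24401 in spermatids (log2 fold change 6.34 ± 0.16 (SE), limma adjusted p = 4.6e-07). H2bl1, a histone H2B variant of the testis (1700024P04Rik), had 142 and 133 in spermatocytes and 17768, 7971 and 7384 in spermatids (log2 fold change 6.20 ± 0.36 (SE), limma adjusted p = 9.3e-06). Spermatid replicate 1 of H2bl1 was above the sum of the other two. Llcfc1, needed for sperm and egg to fuse (1700034O15Rik), had 533 and 327 in spermatocytes and 34270.0, 30885 and 24893 in spermatids (log2 fold change 6.15 ± 0.23 (SE), limma adjusted p = 1.2e-06). Pmis2, needed for sperm to enter the oviduct (4930479M11Rik), had 131 and 106 in spermatocytes and 10012, 7175 and 6108 in spermatids (log2 fold change 6.00 ± 0.22 (SE), limma adjusted p = 1.2e-06). Spermatocyte and spermatid values of these 4 did not overlap.

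Spem2, a relative of a spermatid maturation gene (4933402P03Rik), had 777 and 581 in spermatocytes and 69247, 25730.0 and 24789.9 in spermatids (log2 fold change 5.72 ± 0.44 (SE), limma adjusted p = 3.2e-05), again highest in spermatid replicate 1. Spaca9, named for the acrosome (1700026L06Rik), had 1183 and 1016 in spermatocytes and 33887, 24195 and 21305 in spermatids (log2 fold change 4.56 ± 0.20 (SE), limma adjusted p = 2.4e-06), and it overlaps Ak8. The smallest called difference was that of Toporsl (4930547C10Rik), with 20010.0 and 17790.3 in spermatocytes and 45816, 36848 and 38126 in spermatids (log2 fold change 1.09 ± 0.12 (SE), limma adjusted p = 0.00019). Thegl (1700023E05Rik), which overlaps another clone-named row, had a log2 fold change of 2.83, Tex44 (1700019O17Rik) of 5.91, Tex55 (4930435E12Rik) of 6.25, Ubqln5 (4931431F19Rik) of 6.27 and Spertl (4921530L21Rik) of 6.33. Only Taf7l2 was not called in this group, and it was called lower under both rescalings, where the other 12 kept their calls.

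Members named for the testis behaved alike. All 9 with a Tex name, for testis expressed, were higher in spermatids, with a median log2 fold change of 5.55, and all 3 with a Spata name, for spermatogenesis associated, were higher, with a median of 6.00. These 12 calls held under both rescalings. Tex48 (1700018C11Rik) was the most abundant Tex member, with 266 and 174 in spermatocytes and 21868, 15179.7 and 13656 in spermatids (log2 fold change 6.26 ± 0.25 (SE), limma adjusted p = 1.7e-06), followed by Tex47 (4921511H03Rik), with 1444 and 1202 in spermatocytes and 12456, 9995 and 9055 in spermatids (log2 fold change 2.98 ± 0.16 (SE), limma adjusted p = 5.8e-06). Tex43 (1700065I17Rik), on chromosome 18, had the highest Tex fold change, 6.46, and Tex45 (1700019B03Rik) the lowest, 2.78. Spermatid replicate 1 was the highest spermatid sample in each Tex member except Tex43. It was furthest above the others in Tex46 (4930549C01Rik) and Tex50 (4930469G21Rik, overlapping Ankrd45), at 2341 against 750.3 and 824 and at 11509 against 4147 and 3792. Its log2 ratio to the mean of the other 2 was 1.46 in Tex44, 1.19 in Tex55 and 1.06 in Tex52. Spata45 (1700022P22Rik) had 226 and 158 in spermatocytes and 10307, 14513 and 12154 in spermatids (log2 fold change 6.00 ± 0.20 (SE), limma adjusted p = 8.6e-07), with its lowest spermatid value in replicate 1. Tex52 (4933413G19Rik), which overlaps Foxm1, had a log2 fold change of 4.97, and Spata48 (4930415F15Rik) one of 5.34.

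Of 14 members with a name that begins with Ccdc, for coiled-coil domain, 12 were higher and 1 lower, or 9 and 2 for equal totals and 8 and 2 for quantiles. Ccdc183 (4921530D09Rik), which overlaps Gm13520, had 547 and 421 in spermatocytes and 35075, 33349 and 29818 in spermatids (log2 fold change 6.09 ± 0.14 (SE), limma adjusted p = 3.9e-07), and Ccdc185 (4922505E12Rik) had 317 and 227 in spermatocytes and 27629.7, 20082 and 18174 in spermatids (log2 fold change 6.33 ± 0.22 (SE), limma adjusted p = 9.2e-07). Both were the most abundant of their stem. Of 7 Tmem names, for transmembrane, 6 were higher and 1 lower, and 3 or 4 were higher under the rescalings. Tmem131l (D930015E06Rik) had 333 and 289 in spermatocytes and 17999, 16113 and 15062 in spermatids (log2 fold change 5.72 ± 0.12 (SE), limma adjusted p = 3.7e-07), while Tmem250-ps (C330006A16Rik), a pseudogene by name, had 2098 and 2037 in spermatocytes and 3036, 3572 and 3489.9 in spermatids and was not called under the rescalings. The 8 Fam names were split, with 4 higher and 4 lower under all 3 scalings. Fam243 (4930563D23Rik) had 655 and 461 in spermatocytes and 49287, 29811 and 26709.9 in spermatids, and Fam166c (1700001C02Rik) had 425 and 378 in spermatocytes and 15292, 12409.6 and 11532 in spermatids; both were higher in every spermatid sample. The 1 Lrrc name, Lrrc74b (4930451C15Rik), was called lower only for equal totals, with 50.6 and 37.5 in spermatocytes and 31.0, 35.7 and 32.5 in spermatids.

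**Figure D4:**
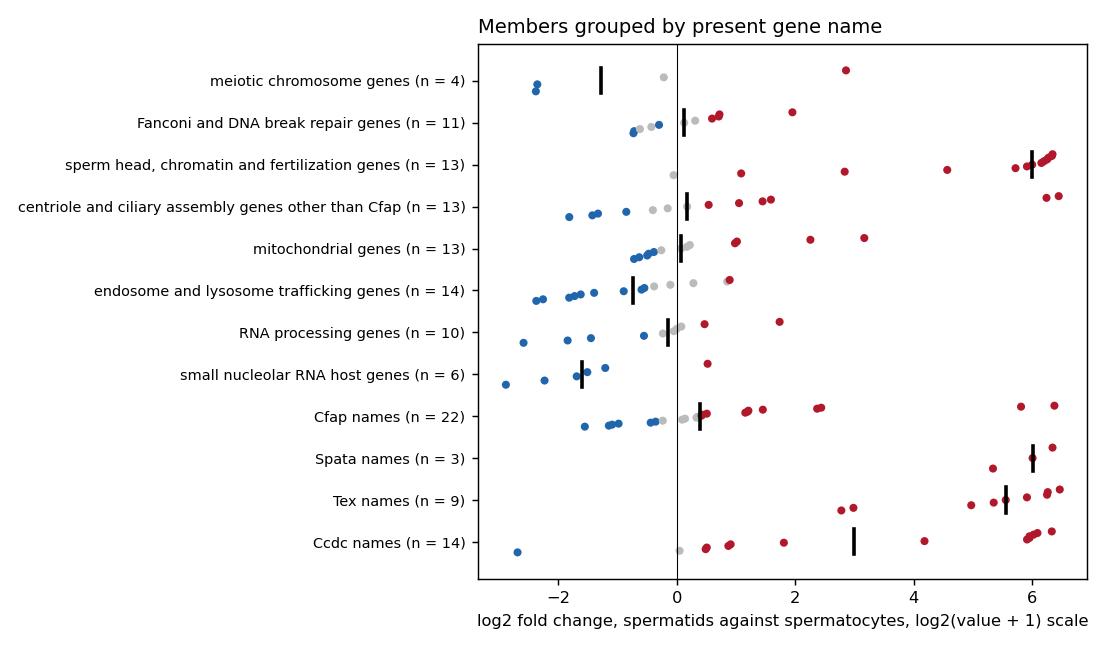
Log2 fold change of each member in groups made from present gene names; red points were called higher in spermatids, blue points lower and grey points not called, and black bars are medians. The sperm head, Spata and Tex groups have medians of 6.00, 6.00 and 5.55, and the endosome and small nucleolar RNA host groups have medians of -0.74 and -1.60.

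Members named Cfap, for cilia and flagella associated protein, came on 22 rows for 18 genes. Of these rows 11 were higher and 6 lower, with a median log2 fold change of 0.38; under the rescalings the balance turned, 8 against 10 for equal totals and 8 against 11 for quantiles. Cfap97d1 (1700006E09Rik) had 99.1 and 89.2 in spermatocytes and 10042, 7748 and 6262 in spermatids (log2 fold change 6.37 ± 0.20 (SE), limma adjusted p = 7.2e-07). Cfap77 (1700101E01Rik), a protein of the microtubule doublets, had 43.1 and 34.2 in spermatocytes and 1979.9, 2571 and 2114 in spermatids (log2 fold change 5.81 ± 0.18 (SE), limma adjusted p = 6.8e-07). These were the only Cfap members over 32-fold. Cfap126 (1700009P17Rik), also called Flattop, had a log2 fold change of 2.44. Cfap69 (A330021E22Rik), a flagellum assembly gene, had 18037 and 17721 in spermatocytes and 47549, 36515 and 36464 in spermatids (log2 fold change 1.16 ± 0.13 (SE), limma adjusted p = 0.00022).

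Cfap61 and Cfap46 were each split over several rows of the table. The 2 rows of Cfap61 (4930529M08Rik), a radial spoke gene, had log2 fold changes of 1.21 and 1.45. The 2 rows of Cfap46, a gene of the central pair of the axoneme, carried different clone codes and were both lower: E030019B06Rik had 7549.7 and 7395 in spermatocytes and 2614, 2101 and 3014 in spermatids (log2 fold change -1.55 ± 0.16 (SE), limma adjusted p = 0.00011) and 9330101J02Rik had 2024 and 1833 in spermatocytes and 885, 737 and 1008 in spermatids (log2 fold change -1.15 ± 0.15 (SE), limma adjusted p = 0.00046). Each pair of rows thus had the same direction. Cfap97d2 (4932443I19Rik) was also lower, with 409 and 343 in spermatocytes and 245, 161 and 137 in spermatids (log2 fold change -1.09 ± 0.27 (SE), limma adjusted p = 0.0088), the opposite of its relative Cfap97d1, though not called without spermatocyte replicate 1 (limma adjusted p = 0.09).

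Of 13 other centriole and ciliary assembly genes 6 were higher and 4 lower, or 5 and 6 under either rescaling. Iqca1l (4931409K22Rik) had 487 and 274 in spermatocytes and 29095, 34926 and 31888 in spermatids (log2 fold change 6.44 ± 0.23 (SE), limma adjusted p = 1.1e-06), and Stpg3 (4933433C11Rik) had 149.7 and 105 in spermatocytes and 10881, 9461 and 8478 in spermatids (log2 fold change 6.24 ± 0.18 (SE), limma adjusted p = 5.9e-07). Jhy (4931429I11Rik) and Hoatz (4833427G06Rik), both genes of motile cilia, had log2 fold changes of 1.59 and 1.45, and Cep295 (5830418K08Rik), a centriole assembly gene that overlaps Taf1d and Scarna9, one of 1.05. The lower members included Tedc1 (4930427A07Rik), a partner of the delta and epsilon tubulins of centrioles, with 1982 and 1947 in spermatocytes and 498, 589.7 and 592 in spermatids (log2 fold change -1.81 ± 0.13 (SE), limma adjusted p = 2e-05). Its row overlaps an immunoglobulin heavy chain row. Cep162 (4922501C03Rik), a gene of the ciliary transition zone, had 793 and 700.0 in spermatocytes and 279, 249 and 306 in spermatids (log2 fold change -1.42 ± 0.16 (SE), limma adjusted p = 0.00016). Crocc2 (E030010N08Rik), related to the ciliary rootlet protein, was lower at a low level, with a log2 fold change of -1.33, and missed the threshold without spermatocyte replicate 1 (limma adjusted p = 0.052).

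Meiotic genes went in both directions. Majin (1700123I01Rik) and Terb2 (4933406J08Rik) belong to the complex that tethers telomeres to the nuclear envelope in meiotic prophase, and both were lower in spermatids. Majin had 849 and 758 in spermatocytes and 166, 168 and 136 in spermatids (log2 fold change -2.35 ± 0.17 (SE), limma adjusted p = 2.4e-05). Terb2 had 735 and 781 in spermatocytes and 181, 164 and 103 in spermatids (log2 fold change -2.38 ± 0.26 (SE), limma adjusted p = 0.00017). The 2 fold changes were nearly equal. Rec114 (2410076I21Rik), which acts in making the meiotic DNA breaks, was higher in spermatids, with 32.3 and 22.1 in spermatocytes and 144, 231 and 240.0 in spermatids (log2 fold change 2.86 ± 0.32 (SE), limma adjusted p = 0.0002), but its row overlaps 3 others, Nptn among them. Meikin (4930404A10Rik), the meiosis I kinetochore gene, had 1744 and 1649 in spermatocytes and 1535, 1419 and 1421 in spermatids and was not called (limma adjusted p = 0.087); under both rescalings, and without spermatid replicate 1 (limma adjusted p = 0.038), it was called lower.

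Of 11 Fanconi and DNA break repair genes 4 were higher and 3 lower, or 1 and 5 under each rescaling, and the median was 0.13. Hmces (8430410A17Rik), which shields abasic sites in single-stranded DNA, had 259.6 and 212 in spermatocytes and 766, 1081 and 909.7 in spermatids (log2 fold change 1.95 ± 0.19 (SE), limma adjusted p = 8.9e-05) and was the 1 member of this group that changed at least 2-fold.

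Of 13 mitochondrial genes 4 were higher and 5 lower, near the shares of all rows, with the same counts for quantiles and 2 and 8 for equal totals. Atp5mpl (2010107E04Rik), a small ATP synthase subunit, had 682 and 654 in spermatocytes and 6285, 6520.5 and 5254 in spermatids (log2 fold change 3.16 ± 0.12 (SE), limma adjusted p = 1.5e-06). Micos13 (2410015M20Rik), of the complex that shapes the cristae, had 2467 and 2266 in spermatocytes and 13716, 10609 and 9884 in spermatids (log2 fold change 2.25 ± 0.15 (SE), limma adjusted p = 1.7e-05). Both had no overlap between groups and no overlapping row. Prorp (1110008L16Rik), the nuclease of mitochondrial RNase P, had 237 and 203 in spermatocytes and 505, 452 and 385 in spermatids (log2 fold change 1.02 ± 0.18 (SE), limma adjusted p = 0.0017), but it overlaps Ppp2r3c and was not called for equal totals (limma adjusted p = 0.077). The 5 lower members of this group all changed by less than 2-fold.

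Endosome and lysosome genes were mostly lower in spermatids. Of 14, 9 were lower and 1 higher, with a median log2 fold change of -0.74, and 12 or 11 were lower under the rescalings. Borcs7 (2010012O05Rik) and Borcs6 (2310047M10Rik) are subunits of the complex that positions lysosomes. Borcs7 had 1288 and 1261 in spermatocytes and 248, 236 and 254 in spermatids (log2 fold change -2.37 ± 0.13 (SE), limma adjusted p = 6e-06). Borcs6, which overlaps another clone-named row, had 3175 and 3311 in spermatocytes and 961, 1068 and 1139 in spermatids (log2 fold change -1.62 ± 0.11 (SE), limma adjusted p = 2e-05). No spermatid sample reached the spermatocyte level in either, although another subunit on the list, Borcs8 (2310045N01Rik), was not called (log2 fold change 0.28).

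Glmp (0610031J06Rik), a lysosomal membrane protein gene that overlaps Tmem79, had 179.9 and 265 in spermatocytes and 40.3, 44.6 and 50.3 in spermatids (log2 fold change -2.26 ± 0.27 (SE), limma adjusted p = 0.00026). C9orf72 (3110043O21Rik), a gene of an autophagy complex, had 672 and 700.0 in spermatocytes and 184, 231 and 172 in spermatids (log2 fold change -1.82 ± 0.18 (SE), limma adjusted p = 9.9e-05). Vps35l (9030624J02Rik), of the endosomal recycling complex Retriever, had 2789 and 3415 in spermatocytes and 910.1, 936 and 955 in spermatids (log2 fold change -1.72 ± 0.12 (SE), limma adjusted p = 2.1e-05) and overlaps Knop1. Relch (2310035C23Rik), of recycling endosomes, had 1279.6 and 1429.6 in spermatocytes and 383, 802 and 442 in spermatids, with spermatid replicate 2 well above the other two (log2 fold change -1.39), and was not called without spermatocyte replicate 2 (limma adjusted p = 0.064). The 19 Sertoli markers that were lower in spermatids moved in the same direction as this group, and their part in it was not tested.

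Hosts of small nucleolar RNAs, noncoding genes whose introns carry those RNAs, were mostly lower. Of 6, 5 were lower and 1 higher, with a median of -1.60, and the 1 higher call was lost under the rescalings. Snhg20 (2810008D09Rik) had 266 and 296 in spermatocytes and 21.7, 53.5 and 44.0 in spermatids (log2 fold change -2.88 ± 0.40 (SE), limma adjusted p = 0.00053). Zfas1 (1500012F01Rik), which overlaps Snord12 and Znfx1, had 229 and 248 in spermatocytes and 71.3, 69.4 and 79.6 in spermatids (log2 fold change -1.69 ± 0.20 (SE), limma adjusted p = 0.00027). Snhg16 (1810032O08Rik) had 385 and 383 in spermatocytes and 129, 117 and 160.3 in spermatids (log2 fold change -1.51 ± 0.20 (SE), limma adjusted p = 0.00041) and overlaps 3 rows, St6galnac2 among them. In these 3 no spermatid value reached the lower spermatocyte value. Snhg14 (C230091D08Rik) and Snhg18 (0610007N19Rik) had log2 fold changes of -1.21 and -2.23. Snhg18, which overlaps Snord123, was low, with 66.8 and 68.4 in spermatocytes and 6.20, 20.8 and 18.9 in spermatids, and was not called when either spermatocyte sample was left out (limma adjusted p = 0.062 and 0.065).

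Of 10 RNA processing genes 4 were lower and 2 higher, or 8 and 1 under each rescaling. Sf3b6 (0610009D07Rik), the splicing factor subunit at the branch point, had 1149 and 1099 in spermatocytes and 298, 387 and 266 in spermatids (log2 fold change -1.84 ± 0.18 (SE), limma adjusted p = 0.00011). Bmt2 (B630005N14Rik), listed for its similarity to a yeast ribosomal RNA methyltransferase but known as a sensor of S-adenosylmethionine, had 724 and 895 in spermatocytes and 112, 215 and 98.5 in spermatids (log2 fold change -2.59 ± 0.34 (SE), limma adjusted p = 0.00043). Rbis (1810022K09Rik), a ribosome biogenesis gene that overlaps E2f5, was low, with a log2 fold change of -1.45, and was not called without spermatocyte replicate 2 (limma adjusted p = 0.064). Trmt9b (6430573F11Rik), a tRNA methyltransferase by name, was higher but near the detection limit, with 5.39 and 3.35 in spermatocytes and 20.2, 17.8 and 12.6 in spermatids (log2 fold change 1.74 ± 0.42 (SE), limma adjusted p = 0.0081). Its spermatocyte mean was under 10, so it passed the limit only through spermatids and the filter fixed its direction. Its p-value is no support for that direction.

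Members listed today as the opposite-strand transcript of another gene numbered 86, of which 53 were higher and 22 lower, or 39 and 25 for equal totals and 41 and 25 for quantiles. The deposited shares, 61.6% and 25.6%, lie near the 56.2% and 24.3% of all members. Over all rows they were 40.6% and 36.5%. The named gene had a tested row for 74 of them. Both were higher in 32 pairs, both lower in 10, and the calls were opposite in 10. How many pairs would match from the separate call rates alone was not computed. Across these 74 pairs Spearman's rho of the log2 fold changes was 0.58; 57 of the 74 members overlap another row, so pairs can share reads as well as libraries. The 5 pairs described next were chosen after their values were seen.

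Itpr3os (1700062I23Rik) had 104 and 76.4 in spermatocytes and 9464, 2300.3 and 2373 in spermatids (log2 fold change 5.37 ± 0.60 (SE), limma adjusted p = 0.00019). Itpr3, an inositol trisphosphate receptor gene, had 40.9 and 36.2 in spermatocytes and 704, 630.3 and 519.8 in spermatids (log2 fold change 3.96 ± 0.20 (SE), limma adjusted p = 4.8e-06). Spermatid replicate 1 of the opposite-strand gene was well above its other spermatid samples, which was not so for Itpr3. Cdiptos (D830044I16Rik) had 556 and 375 in spermatocytes and 43577, 27789 and 24995 in spermatids (log2 fold change 6.09 ± 0.27 (SE), limma adjusted p = 2.6e-06), and Cdipt, the phosphatidylinositol synthase gene, 359 and 435 in spermatocytes and 5791, 5618 and 5977 in spermatids (log2 fold change 3.87 ± 0.12 (SE), limma adjusted p = 6.2e-07). Both members of each pair were higher in spermatids. Itpr3os overlaps Itpr3 and Cdiptos overlaps Cdipt, so these rows too may share reads.

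In the other pairs the member and the named gene had different calls or 1 of them had none, and the difference within a pair was not tested. Stk35os1 (4932416H05Rik) had 12503 and 11847 in spermatocytes and 10329, 9055 and 8898 in spermatids (log2 fold change -0.37 ± 0.10 (SE), limma adjusted p = 0.012), whereas the kinase gene Stk35 had 3424 and 3144 in spermatocytes and 16585, 9459 and 9753 in spermatids (log2 fold change 1.81 ± 0.24 (SE), limma adjusted p = 0.00045). When spermatocyte replicate 1 or 2 was left out, Stk35os1 was not called (limma adjusted p = 0.092 and 0.055), and neither was Kcnmb4os1 (0.063 and 0.12). Kcnmb4os1 (1700058G18Rik) had 8533 and 7829 in spermatocytes and 13299, 10323 and 10589 in spermatids (log2 fold change 0.47 ± 0.13 (SE), limma adjusted p = 0.014), and the potassium channel gene Kcnmb4 4441 and 3919 in spermatocytes and 2991, 3055 and 3135 in spermatids (log2 fold change -0.45 ± 0.10 (SE), limma adjusted p = 0.0046); the direction of Kcnmb4os1 turned under both rescalings, and it was called lower for quantiles (limma adjusted p = 0.026). Stk35os1 overlaps Stk35 and Kcnmb4os1 overlaps Kcnmb4, so these rows may share reads. Oip5os1 (1700020I14Rik), also known as Cyrano and overlapping Spint1, had 4568 and 4819.7 in spermatocytes and 5031, 4271 and 4222 in spermatids and was not called (limma adjusted p = 0.62), or was called lower under both rescalings, while the centromere gene Oip5 had 828 and 776 in spermatocytes and 428, 554 and 419 in spermatids (log2 fold change -0.79 ± 0.16 (SE), limma adjusted p = 0.0038). All 5 of these members overlap at least 1 other row.

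Pairs that start head to head within 1000 bases share a promoter region without having to overlap. There were 208 such pairs of a member and a named gene, with both higher in 59, both lower in 28 and opposite calls in 34, and Spearman's rho of the log2 fold changes was 0.42 across the pairs. In 83 of the 208 the member overlaps another row, so reads can be shared here too. The number of matching pairs that the separate call rates alone would give was not computed here either. 1700003E16Rik and Wdr54 start 7 bases apart. The member had 7286 and 6328 in spermatocytes and 20019, 17619 and 16409 in spermatids (log2 fold change 1.40 ± 0.12 (SE), limma adjusted p = 4.7e-05), and Wdr54, a WD repeat gene, had 1646 and 1561 in spermatocytes and 5754, 7696 and 7267 in spermatids (log2 fold change 2.10 ± 0.14 (SE), limma adjusted p = 1.7e-05). Mfsd13b (4933427G17Rik), a transporter gene by name, starts 197 bases from Cdr2. It had 1620.0 and 1455 in spermatocytes and 21532, 23239 and 21528 in spermatids (log2 fold change 3.85 ± 0.09 (SE), limma adjusted p = 4.5e-07), while Cdr2 had 7165 and 6177 in spermatocytes and 9568, 9444 and 8698 in spermatids (log2 fold change 0.47 ± 0.10 (SE), limma adjusted p = 0.0046). Across a gap of under 1000 bases the fold changes of that pair were thus far apart.

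Ddias (4632434I11Rik), a suppressor of apoptosis after DNA damage, starts 223 bases from Prcp, a prolylcarboxypeptidase gene. Ddias had 11737 and 11213 in spermatocytes and 18490.1, 15957 and 17653 in spermatids (log2 fold change 0.60 ± 0.10 (SE), limma adjusted p = 0.0011), a direction that turned under both rescalings. Prcp had 427 and 409.7 in spermatocytes and 2330.2, 2630.4 and 2604 in spermatids (log2 fold change 2.59 ± 0.11 (SE), limma adjusted p = 2.2e-06). Here the neighbour had the larger difference. Spaca9 starts 437 bases from Ak8, an adenylate kinase gene with 10246 and 9889 in spermatocytes and 30513, 32917 and 31427 in spermatids (log2 fold change 1.65 ± 0.08 (SE), limma adjusted p = 4.4e-06), a smaller difference than that of Spaca9.

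Members chosen as at least 32-fold higher in spermatids had, by that choice, a low level in spermatocytes beside their spermatid level. In the 521 members at least 32-fold higher, the spermatocyte mean was 1.37% of the spermatid mean at the median, with quartiles of 1.15% and 1.73% and a range of 0 to 3.12%, and it was under 2% in 439. The upper end of that range is set by the 32-fold limit itself. The same values for all rows at least 32-fold higher were not computed, so they do not set the members apart. The share was 1.42% for Prm1 and 1.82% for Prm2, protamine genes, and 1.45% for Tnp1 and 1.57% for Tnp2, transition protein genes of late spermatids. Between the spermatocyte samples, replicate 1 was above replicate 2 by a median log2 ratio of 0.48 in 113 of the 521 with a spermatocyte mean of at least 100, against 0.04 for all rows at that level. The list of spermatid markers had a median ratio of 0.40 between the same samples. The sum of the spermatid markers ranged from 33371 to 42665 in spermatocytes and from 1214891 to 2957322 in spermatids. Their part in the spermatocyte level of these members was not tested.

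Spermatid replicate 1 stood apart for some members. Of 1448 members with a spermatid mean of at least 100, 70 (4.83%) were at least 2-fold higher in replicate 1 than in the mean of replicates 2 and 3, against 465 of 16633 rows (2.80%). At least 2-fold lower were 11 of these members, against 196 of the same 16633 rows. Of the 70, 64 were testis-library members, out of 951 at that level, and 6 were others, out of 497. Among 488 members at least 32-fold higher in spermatids 49 showed it. Markers of mature sperm heads and late spermatids summed to 524664 to 1603846 over the spermatid samples, and Prm1 had 1844 and 1689 in spermatocytes and 241710.3, 61827 and 69515 in spermatids, highest in replicate 1. The number of members higher in spermatids was 1108 with all samples and 1117 without this replicate.

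The largest ratios toward replicate 1 were those of 1700009J07Rik, 1700027A15Rik and Nat8f4 (1700019G17Rik). 1700009J07Rik, noncoding, had 179.9 and 104 in spermatocytes and 15727, 3400.5 and 3999 in spermatids, a log2 ratio of replicate 1 to the others of 2.09. 1700027A15Rik, also noncoding, had 309 and 164 in spermatocytes and 27771, 6858 and 6484 in spermatids, a ratio of 2.06. Nat8f4, an acetyltransferase gene by name, had 154 and 150.2 in spermatocytes and 3738, 855 and 946 in spermatids, a ratio of 2.05. All 3 were higher in each spermatid sample than in both spermatocyte samples.

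The most extreme value of any member lay in the other direction. 4930555K19Rik, a processed pseudogene in GENCODE whose reads may be shared with a parent gene, had 1845 and 3637 in spermatocytes. It had 23.3, 1379.6 and 2855 in spermatids, a log2 ratio of -6.45. Its spermatid replicate 1 alone was near 0, its groups overlapped, and it was not called (log2 fold change -2.50 ± 1.88 (SE), limma adjusted p = 0.26); without that replicate the log2 fold change was -0.38. 4933437N03Rik, which overlaps Akna, had 480.4 and 452 in spermatocytes and 212, 1345 and 1108 in spermatids, a ratio of -2.52. It was not called and its estimate turned sign with equal totals, but without that replicate it was higher in spermatids (log2 fold change 1.39, limma adjusted p = 0.0002). 4930430F21Rik, noncoding, had 2.15 and 0 in spermatocytes and 35.7, 148 and 202 in spermatids, a ratio of -2.26. With 2 reads in spermatocytes it was 119-fold higher in spermatids, with an exact 95% counting interval of 33.0 to 985. It passed the limit on the mean only through spermatids, so the filter fixed its direction.

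**Figure D5:**
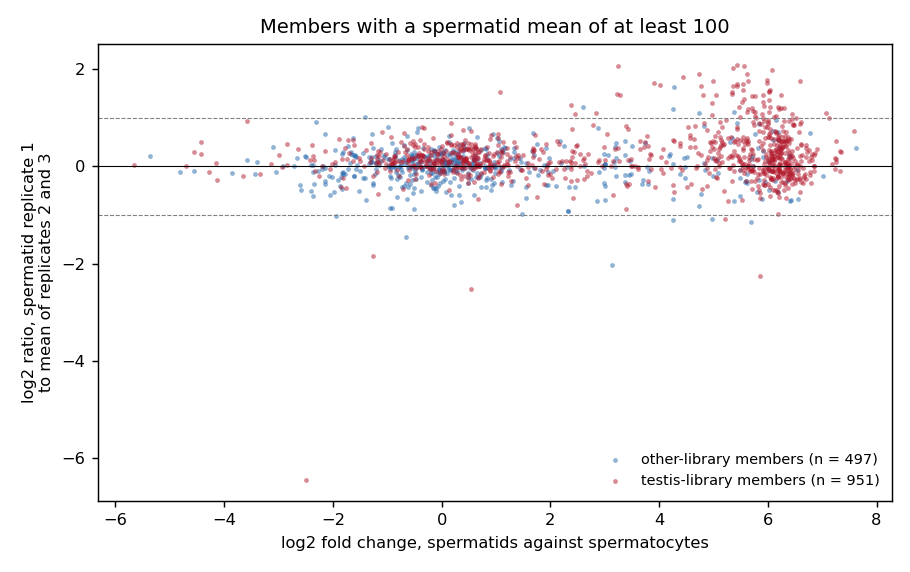
Log2 ratio of spermatid replicate 1 to the mean of replicates 2 and 3 against the log2 fold change, spermatids against spermatocytes, for 951 testis-library and 497 other members with a spermatid mean of at least 100. Dashed lines mark 2-fold; 70 members lie at or above the upper line, and the lowest point, at -6.45, is 4930555K19Rik.

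The rule's limit fell among genes of very few reads. The members just inside it were 4930515L03Rik, with 0 and 0 in spermatocytes and 17.1, 13.9 and 19.9 in spermatids, and 9230112J17Rik, with 2.15 and 8.05 in spermatocytes and 24.8, 5.95 and 9.43 in spermatids. Against a floor of 3 reads per library, 4930515L03Rik was at least 6.46-fold higher in spermatids. 4930515L03Rik and 9230112J17Rik both passed the limit on the mean only through spermatids, so the filter fixed their direction. Just outside were 2310016G11Rik, with a mean of 9.94 and counts of 0 and 1.34 in spermatocytes and 14.0, 21.8 and 12.6 in spermatids, and 9130213A22Rik, with a mean of 9.93 and counts of 8.62 and 8.05 in spermatocytes and 12.4, 6.94 and 13.6 in spermatids. Of these 4 genes, 4930515L03Rik and 2310016G11Rik had values that did not overlap between the groups.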

How the data were processed

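Polyadenylated RNA was measured in 2 spermatocyte and 3 spermatid samples. The authors deposited 1 signal per gene and sample, a gene count divided by a DESeq size factor, per the submitters' processing notes, in a table annotated per the file headers with GenoSplice genes on mm10; it is here called a normalized count. Other entries in the notes are STAR 2.4.0, SAMtools, Picard, FastQC and the build mm10. Which program counted the reads, and with which strand setting, is not stated in the sources used here. Within 0.001, 100% of the values were whole multiples of the smallest value of their column, which gave the read totals; in 1 spermatid column this value is too close to 1 to tell reads from normalized values, so no count test was run.

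Rows with a mean of at least 10 were fitted on log2(value + 1) by limma 3.58.1 under R 4.3.3; eBayes used the trend of variance with mean, and p-values were adjusted over all rows (Benjamini-Hochberg). The pseudocount shrinks the fold changes of low genes. The limma step was tested on simulated data. The members and lists were chosen with earlier results of these data known. Named members were the 8 with the largest fold change in each direction (called, groups not overlapping, higher group averaging at least 100), the 8 most abundant, the 4 most abundant not called, 3 in each direction by the ratio of spermatid replicate 1 to the others, 2 on each side of the limit, the 2 most abundant of each name stem, the 4 most abundant of head to head pairs, and those stated as chosen later; 1 gene this rule picks is not reported here. Present symbols and promoters came from RefSeq on GRCm38.p6, strand and exons from GENCODE vM21. Replicate numbers follow accession order and pair nothing. The fit was repeated with other pseudocounts, filters, scalings, without the eBayes trend, and without each replicate in turn. Python 3.11.15, pandas 2.3.3, numpy 2.4.6, scipy 1.17.1 and matplotlib 3.10.9 were used.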

Additional observations from a re-analysis of the deposited data

How the results depend on the processing

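No paired analysis was possible because replicate numbers were given in accession order and pair no samples. The planned edgeR, DESeq2 and TMM alternatives were not run, since reads were not recovered with certainty in 1 spermatid column. Over the other alternatives, the 2 subsets of members chosen after seeing the data included, more members were higher than lower and the median stayed above 0. The median log2 fold change was 0.79 with a pseudocount of 10, 1.06 with a mean of at least 100, 0.23 with equal totals, 0.40 after quantile normalization, 1.21 for members that overlap no other row, 0.43 for members with a mean of at least 10 in both groups, and 0.84 to 0.89 when 1 replicate was left out. Among members that overlap no other row, 575 were higher and 204 lower. Of these, testis-library members gave 441 and 85 and the others 134 and 119. The balance of the others thus turned, from 305 higher and 316 lower with a median of -0.03 to a median of 0.13. What caused this was not tested. With a mean of at least 100 the other-library members gave 190 higher and 209 lower, and with 10 in both groups 197 higher. Testis-library members lower in spermatids numbered 250 with equal totals and 247 after quantile normalization. Other-library members were 305 higher and 316 lower as deposited, and 220 and 457 with equal totals, whose cause was not tested.

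Of 117 named rows 110 kept their direction under all alternatives run. With equal totals the estimates of 7 turned: A730098P11Rik to -0.35, 2210404O07Rik to -0.35, 1700058G18Rik to -0.18, 1700029F12Rik to -0.11, 4933437N03Rik to -0.10, 4632434I11Rik to -0.051 and 4922502D21Rik to -0.038. After quantile normalization 6 of these turned, to -0.14, -0.26, -0.27, -0.069, -0.15 for 4632434I11Rik and -0.0063 for 4922502D21Rik. Leaving out a spermatocyte replicate leaves 1 sample in that group, which is then assumed to vary like the spermatids; 7 or 8 named calls were lost. Low levels limit precision: 508 members had a mean under 100.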
